A study of Homo sapiens with 6 samples.

Results

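The DNA replication machinery genes described here are 44 genes whose products license replication origins, unwind DNA, copy it, join the new fragments and supply its building blocks. They were chosen by name, as every row of the deposited gene table whose gene name field holds one of these 44 symbols. The rule found 45 rows among the 27918 genes and loci of the table, because TYMS has a second row. In the annotation columns of the table, 42 of the 44 genes carried the Gene Ontology term DNA replication, which 161 loci carried in all, and the exceptions were GMNN and TYMS. The KEGG pathway of the same name was listed for 26 of them, out of 36 loci.

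The study asked which genes change in expression when the long noncoding RNA CASC9 is targeted in HCT-116, an established human colorectal carcinoma cell line. A GapmeR is an antisense oligonucleotide with a DNA centre and modified ends, which leads RNase H to cut the RNA it pairs with. Cells received 10 nM of a CASC9 GapmeR (GapC9) or of a control GapmeR (GapNC), and 3 libraries of poly(A) RNA were sequenced for each group. All 6 libraries came from this single line, and the labels do not say whether the 3 libraries of a group came from separate cultures, so p-values measure only the spread between these libraries. The study's text gives 24 h after transfection in one place and 48 h in another.

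In each cell cycle, the origin recognition complex, CDC6 and CDT1 load the ring of MCM2 to MCM7 onto DNA before S phase, and geminin (GMNN) keeps CDT1 from loading it again. CDC45 and the GINS complex then join the ring to form the active helicase, DNA polymerase alpha with primase starts each strand, and polymerases delta and epsilon extend it while held by the clamp PCNA. Many of these genes are transcribed under E2F factors as cells enter S phase, and dividing cells such as cancer lines express them throughout.

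Values are FPKM, fragments scaled to the length of the transcript and to the mapped fragments of the library, so levels can be compared between genes of different length. The table holds no counts, and no counting error is given for single values. CASC9 had values of 0, 0.0108 and 0 FPKM in GapNC libraries 1 to 3 and of 0.0528, 0.107 and 0 FPKM in GapC9 libraries 1 to 3 (exact two-sided permutation test, p = 0.40, where 0.10 is the smallest p that 3 against 3 allow). CASC9 was near 0 in both groups, so these values could not show a lowering and do not check the labels, on which each direction below rests. The study measured CASC9 in GapmeR-treated HCT-116 cells separately, by RT-qPCR, which was not analysed here. The epithelial marker EPCAM lay between 62.3 and 88.4 FPKM, and KRT8 between 316 and 480 FPKM, whereas VIL1 was at or below 0.0481 FPKM. Of 9 stromal, endothelial and blood marker rows, 6 were below 0.1 FPKM on average, with PTPRC and COL1A2 listed at 0 in all libraries but 1 each. The collagen genes COL3A1, at 3.03 to 4.13 FPKM, and COL1A1, at 1.06 to 1.54 FPKM, were detected in all 6 libraries, with overlap between groups. The summed level of the 9 rows was 54.4 to 61.5 FPKM in GapNC and 54.2 to 58.7 FPKM in GapC9 libraries, most of it from a row that joins CD68 with neighbouring genes. Their part in the results below was not tested.

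A small number of replication genes were lower in the libraries labelled GapC9. POLA1, the catalytic subunit of DNA polymerase alpha, was lower at a ratio of mean FPKM of 0.494, and GINS4, a subunit of the helicase cofactor GINS, at 0.464. RFC5, a small subunit of the clamp loader, was lower at 0.703. These 3 of the 45 rows (6.67%) passed an adjusted p under 0.05 in the lower direction, and 0 passed in the higher direction (limma with Benjamini-Hochberg adjustment over 16028 genes and loci, as for every adjusted p below). Over all genes tested, 5.1% passed in the lower and 1.89% in the higher direction, so the share of members that passed was near the background. In a fit to genes that averaged 1 FPKM or more, the same 3 members passed, beside 8.7% lower and 3.03% higher of all genes. After scaling all libraries to a common median, 2 members were lower (GINS4 and POLA1, without RFC5) and 1 was higher (MCM3). This was beside 427 lower and 483 higher of all genes, where the unscaled values gave 817 and 303. Without GapNC library 1 the same 3 genes passed, and without GapNC 2, GapNC 3, GapC9 1, GapC9 2 or GapC9 3, 0 did. Over all genes, 573 were lower and 241 higher without GapNC library 1, and 17 to 70 were lower and 16 to 35 higher without one of the others. In bulk RNA, fewer cells that express a gene and less of its RNA per cell cannot be told apart.

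By a ratio of at most 0.5 or at least 2 with an unadjusted p under 0.05, 3 rows were lower (GINS1, GINS4 and POLA1) and 0 were higher, beside 4.32% and 2.1% of all genes. At an unadjusted p under 0.05 alone there were 11 lower and 2 higher rows, beside 16.8% and 9.09% of all genes. In both directions together these were 28.9% of the rows and 25.9% of all genes, so the count was near the background. In a fit to genes that averaged 1 FPKM or more, it was 28.9% of the rows and 30.8% of all genes. The libraries of both groups did not overlap for 17 rows, 14 of them lower (31.1%) and 3 higher (6.67%), and 28 rows overlapped. Among all genes tested, 21.6% did not overlap in the lower and 12.6% in the higher direction, and among the 10229 genes that averaged 1 FPKM or more, 24.7% and 14.6%. After median scaling, the split of the members was 9 lower and 10 higher, beside 14.6% and 20.8% of all genes. A correction for GC content gave 13 lower and 9 higher, beside 18.4% and 19.9%.

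The median log2 fold change of the 45 rows was −0.12, next to −0.076 for all genes tested. It was 0.029 after median scaling, where the median of all genes moved by 0.14 to 0.069. That scaling shifts all log2 fold changes alike, so the gap of −0.039 between members and all genes could not change. The gap was −0.066 after quantile normalization and 0.0080 after the GC correction. Of the 44 genes, 17 had a ratio of means over 1, and 23 had group means within 20% of each other.

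**Figure D1:**
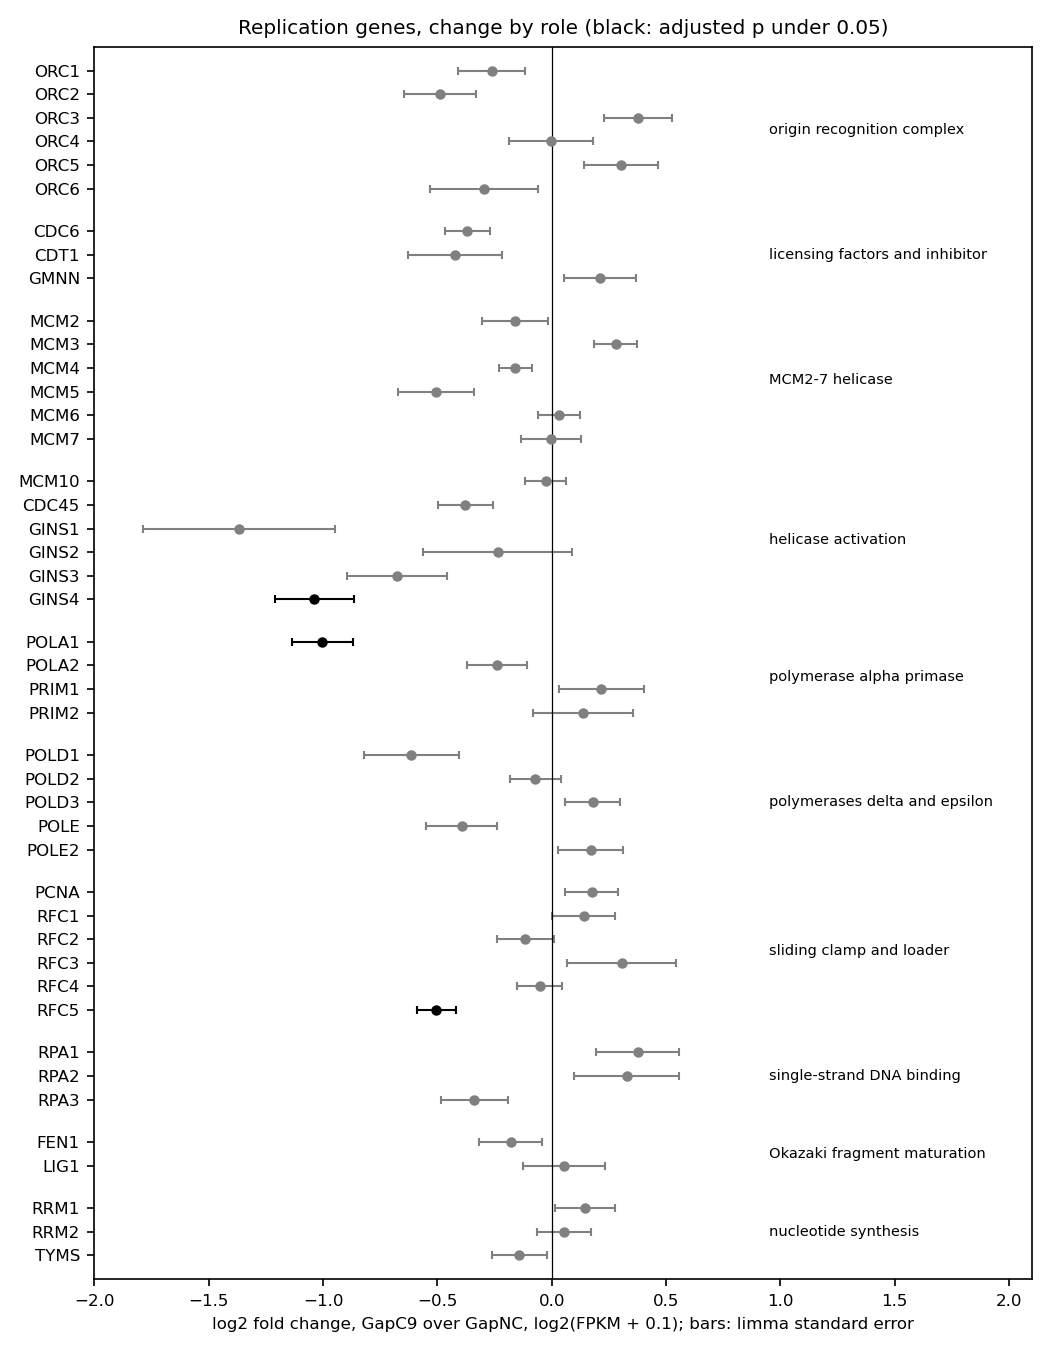
Log2 fold change of each replication gene, GapC9 over GapNC, on the log2(FPKM + 0.1) scale, grouped by role, with limma standard errors as bars (n = 3 libraries a group; black marks an adjusted p under 0.05; the second TYMS row is not drawn). POLA1, GINS4 and RFC5 are the black points, and most other genes lie between −0.5 and 0.5.

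The origin recognition complex marks the sites where replication can begin. Its 6 subunits differed in sign, also after median scaling, and 0 of them passed the adjusted threshold in limma (2 had an unadjusted p under 0.05). ORC2, a core subunit, was at 6.90, 6.70 and 9.47 FPKM in GapNC and at 5.43, 5.15 and 5.57 FPKM in GapC9 libraries, and the groups did not overlap (log2 fold change −0.49 ± 0.16 SE, adjusted p = 0.123). ORC3 was at 6.60, 8.42 and 8.70 FPKM in GapNC and at 9.18, 11.0 and 10.6 FPKM in GapC9 libraries (0.38 ± 0.15 SE, adjusted p = 0.179). The GapC9 values of ORC3 all lay above the GapNC values, opposite to ORC2. ORC5, the third subunit without overlap, was at 7.81, 11.1 and 11.1 FPKM in GapNC and at 12.2, 11.8 and 12.6 FPKM in GapC9 libraries (0.30 ± 0.16 SE). The gap was small for libraries 2 and 3 of GapNC, and library 1 lay lowest. The remaining subunits overlapped, with log2 fold changes of −0.26 for ORC1, which binds CDC6, −0.30 for ORC6 and −0.0046 for ORC4. ORC1 ranged from 10.6 to 14.4 FPKM in GapNC and from 9.14 to 10.7 FPKM in GapC9 libraries, and ORC6 from 4.91 to 9.27 and from 5.44 to 5.86 FPKM. ORC4 was the least abundant subunit, at 2.40 to 3.79 FPKM in GapNC and 2.83 to 3.04 FPKM in GapC9 libraries, so the spread was wider among the controls. The sign for ORC4 was positive after median scaling (0.14). Within each library, ORC2 stood at 0.976 ± 0.158 (SD, n = 3) times ORC3 in GapNC and at 0.528 ± 0.0623 in GapC9, with no overlap. This lack of overlap follows from ORC2 and ORC3 being apart in opposite directions and adds no support.

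The licensing factors CDC6 and CDT1 were lower on average, and geminin, the inhibitor of CDT1, was higher. Of these 3 genes, 0 passed the adjusted threshold in limma and 1 had an unadjusted p under 0.05. CDC6, the ATPase that loads the helicase with CDT1, was at 23.99, 21.0 and 21.6 FPKM in GapNC and at 18.1, 16.9 and 16.4 FPKM in GapC9 libraries. Every GapC9 value of CDC6 was below every GapNC value (−0.37 ± 0.098 SE, adjusted p = 0.0814). CDT1 was at 54.7, 37.6 and 34.3 FPKM in GapNC and at 35.1, 30.9 and 26.8 FPKM in GapC9 libraries (−0.43 ± 0.21 SE, adjusted p = 0.252). The groups overlapped for CDT1, whose highest value was that of GapNC library 1. Geminin was at 11.3, 12.8 and 15.5 FPKM in GapNC and at 16.9, 13.4 and 15.4 FPKM in GapC9 libraries (0.21 ± 0.16 SE, adjusted p = 0.449). The ratio of CDT1 to geminin within a library was 3.33 ± 1.36 in GapNC and 2.04 ± 0.282 in GapC9 (SD, n = 3), and the groups overlapped.

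MCM2 to MCM7 form the ring of the replicative helicase and were among the most abundant members, from 29.2 FPKM for MCM5 to 89.9 FPKM for MCM7 as means over the 6 libraries. The subunits differed in sign, and 0 of 6 passed the adjusted threshold in limma (2 had an unadjusted p under 0.05). MCM5 was at 41.6, 32.8 and 28.9 FPKM in GapNC and at 27.2, 21.8 and 23.0 FPKM in GapC9 libraries. It did not overlap between groups (−0.51 ± 0.17 SE, 95% interval −0.91 to −0.10, adjusted p = 0.126). MCM3 was at 57.3, 55.3 and 48.9 FPKM in GapNC and at 67.7, 62.7 and 65.4 FPKM in GapC9 libraries. Its groups did not overlap either, in the higher direction (0.28 ± 0.095 SE, 95% interval 0.047 to 0.51, adjusted p = 0.135). After median scaling MCM3 had an adjusted p under 0.05, as it did after the GC correction.

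MCM4 was at 74.8, 72.7 and 72.5 FPKM in GapNC and at 66.5, 65.0 and 65.6 FPKM in GapC9 libraries, a small difference without overlap (−0.16 ± 0.072 SE, adjusted p = 0.227). MCM2 was at 69.7, 53.9 and 51.2 FPKM in GapNC and at 56.3, 51.3 and 47.7 FPKM in GapC9 libraries (−0.16 ± 0.14 SE, adjusted p = 0.526, with the sign positive at 0.073 after the GC correction). MCM7 was at 105, 86.1 and 79.5 FPKM in GapNC and at 96.6, 88.6 and 83.3 FPKM in GapC9 libraries. For both of these the groups overlapped and GapNC library 1 was the highest. The fitted change of MCM7 was −0.0040 (adjusted p = 0.991), and 0.14 after median scaling. MCM6 was at 39.7, 38.7 and 41.7 FPKM in GapNC and at 40.9, 44.01 and 38.0 FPKM in GapC9 libraries, with overlap (0.031 ± 0.093 SE, 95% interval −0.20 to 0.26, adjusted p = 0.866).

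Because the 6 subunits act in one ring, their ratios within each library were compared. MCM3 stood at 1.59 ± 0.180 times MCM5 in GapNC and at 2.73 ± 0.217 times in GapC9 libraries (SD, n = 3). MCM7 stood at 2.63 ± 0.112 times MCM5 in GapNC and at 3.74 ± 0.277 times in GapC9 libraries. Neither ratio overlapped between groups, and neither depends on how a library is scaled as a whole. For MCM3 over MCM5 this was fixed in advance, since both genes were apart in opposite directions, so it adds no support. Ratios of other genes of the table were not computed, so no background share is given for any ratio. Among pairs not described elsewhere, PCNA over RFC1 and GINS4 over GINS3 overlapped, and GINS2 over GINS4 did not. A ratio shows unequal change and not which of its genes moved.

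The factors that turn the loaded ring into an active helicase had a median log2 fold change of −0.53 over 6 genes. The median of all genes tested was −0.076. The role median was the lowest of the 10 roles, a ranking of small groups that was not tested. GINS4, GINS1, GINS3 and CDC45 did not overlap between groups, all lower. Among all genes tested, 21.6% were lower without overlap, and 24.7% of those that averaged 1 FPKM or more. The fitted signs of these 4 genes held under all 18 alternative settings. For groups without overlap, leaving out a library cannot change the sign, so this was largely fixed in advance and adds no support. GINS4 was at 3.54, 2.68 and 2.44 FPKM in GapNC and at 1.34, 1.46 and 1.22 FPKM in GapC9 libraries. Every GapC9 value was below every control. Its mean went from 2.89 ± 0.580 FPKM in GapNC to 1.34 ± 0.12 FPKM in GapC9 (SD, n = 3), and the log2 difference was −1.04 ± 0.17 SE (95% interval −1.46 to −0.61, adjusted p = 0.0311). GINS4 passed in 9 of 12 other settings. It also passed without GapNC library 1 (adjusted p = 0.0386), and not without GapNC 2, GapNC 3, GapC9 1, GapC9 2 or GapC9 3, where its adjusted p was 0.0639 to 0.107. Exons of AC009630.1 and AC009630.2 lie on the opposite strand within GINS4, and without strand their reads cannot be told apart.

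GINS1 had the largest fitted difference of the genes with a single row. It was at 11.0, 14.2 and 4.78 FPKM in GapNC and at 3.23, 4.43 and 2.90 FPKM in GapC9 libraries. The groups did not overlap, but GapNC library 3 lay just above GapC9 library 2, far from the other controls. The mean was 10.0 ± 4.80 in GapNC and 3.52 ± 0.803 FPKM in GapC9 (SD, n = 3), with a ratio of 0.352 and a log2 difference of −1.37 ± 0.42 SE (95% interval −2.39 to −0.34, adjusted p = 0.109). Its ratio and unadjusted p no longer met the rule without GapNC library 1 or without GapC9 library 3.

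GINS3 was at 4.98, 4.90 and 4.96 FPKM in GapNC and at 4.31, 2.55 and 2.58 FPKM in GapC9 libraries, where library 1 was near the controls (−0.68 ± 0.22 SE, adjusted p = 0.123). GINS2 overlapped, with 19.2, 17.2 and 8.24 FPKM in GapNC and 11.0, 11.8 and 12.8 FPKM in GapC9 libraries (−0.24 ± 0.32 SE). GapNC library 3 was the lowest of the 3 controls for GINS1, GINS2 and GINS4, and GINS3 had an SD of 0.0426 FPKM among the controls (n = 3). CDC45, which binds GINS and the ring, was at 10.3, 9.61 and 9.09 FPKM in GapNC and at 7.94, 6.54 and 7.82 FPKM in GapC9 libraries, without overlap (−0.38 ± 0.12 SE, adjusted p = 0.118). MCM10, which helps to activate the helicase, stayed within 11.8 to 12.9 FPKM in all 6 libraries, and its sign was positive after median scaling (0.12).

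**Figure D2:**
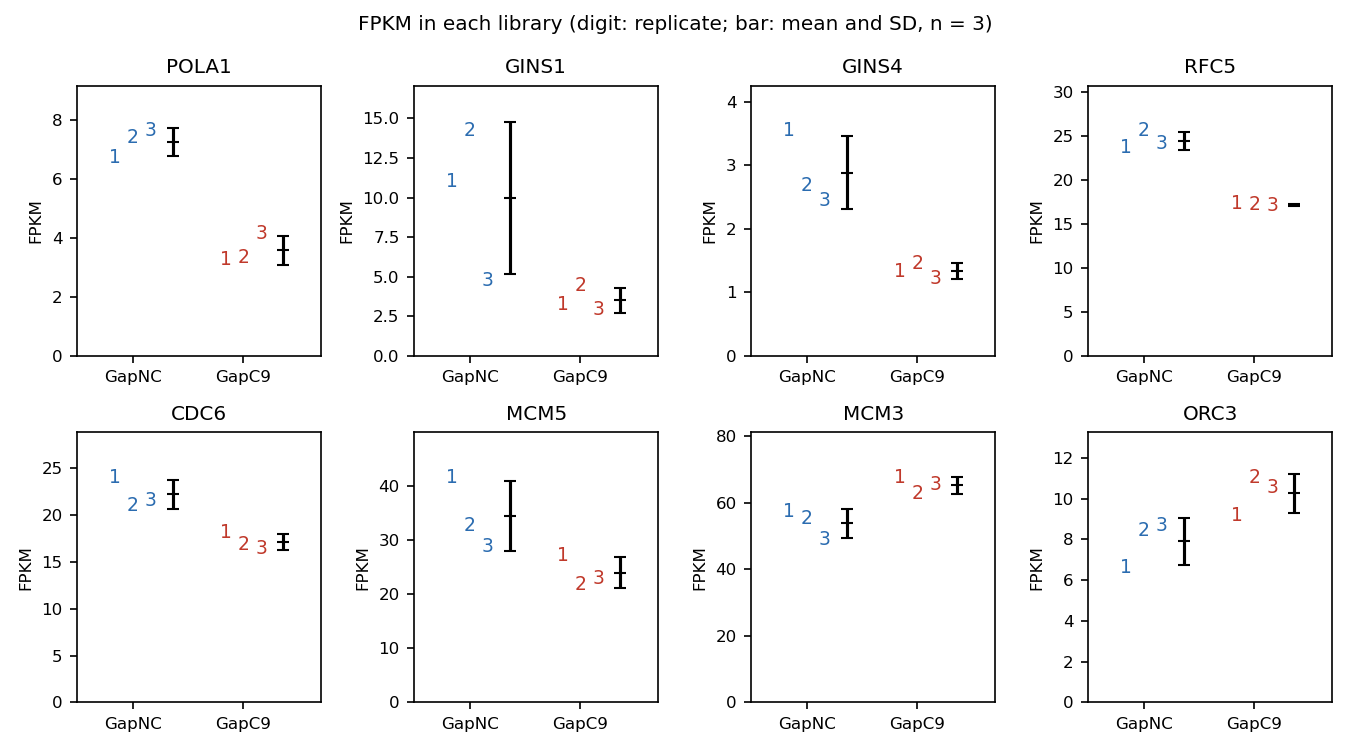
FPKM of 8 replication genes in each library, with digits for the replicate and bars for the mean and SD of 3 libraries; each vertical axis starts at 0 FPKM. POLA1, GINS4, RFC5, CDC6 and MCM5 lie lower in every GapC9 library, MCM3 and ORC3 lie higher, and GINS1 has a control near the GapC9 values at 4.78 FPKM.

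DNA polymerase alpha with primase makes the RNA-DNA primer that starts each strand. POLA1, its catalytic subunit (X:24693919-24996986 on the plus strand of GRCh38), was at 6.73, 7.42 and 7.63 FPKM in GapNC and at 3.27, 3.34 and 4.15 FPKM in GapC9 libraries. All 3 GapC9 values lay well below the lowest control. The mean went from 7.26 ± 0.471 FPKM in GapNC to 3.59 ± 0.487 FPKM in GapC9 (SD, n = 3), and the log2 difference was −1.004 ± 0.13 SE (95% interval −1.33 to −0.68, adjusted p = 0.0210). POLA1 passed in 10 of 12 other settings and without GapNC library 1 (adjusted p = 0.0324), but not without GapNC 2, GapNC 3, GapC9 1, GapC9 2 or GapC9 3, where its adjusted p was 0.0647 to 0.0971.

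POLA2, the partner subunit of POLA1, differed less, from 4.24 ± 0.110 to 3.60 ± 0.473 FPKM (−0.24 ± 0.13 SE, adjusted p = 0.304), without overlap. POLA1 thus stood at 1.71 ± 0.153 times POLA2 in GapNC and at 1.02 ± 0.280 times in GapC9 libraries (SD, n = 3), with no overlap. The primase subunits overlapped, with log2 fold changes of 0.22 for PRIM1, which makes the RNA primer, and 0.14 for PRIM2, its large partner. PRIM2 ranged from 4.06 to 7.29 FPKM among the GapNC libraries alone, wider than its 5.51 to 6.22 FPKM in GapC9 libraries. The PRIM1 row, at 20.4 to 26.7 FPKM in GapNC and 21.3 to 31.2 FPKM in GapC9 libraries, also holds NACA, a neighbour on the same strand, so its value belongs to both.

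Polymerases delta and epsilon copy the lagging and the leading strand. Their catalytic subunits were lower without overlap, and 0 of the 5 genes passed the adjusted threshold in limma (2 had an unadjusted p under 0.05). POLD1 was at 12.8, 8.38 and 8.003 FPKM in GapNC and at 7.04, 5.84 and 5.73 FPKM in GapC9 libraries (−0.61 ± 0.21 SE, adjusted p = 0.137), in a row joined with SPIB. POLE was at 10.3, 7.88 and 7.70 FPKM in GapNC and at 7.25, 6.25 and 5.99 FPKM in GapC9 libraries (−0.39 ± 0.15 SE, adjusted p = 0.178). For both, GapNC library 1 was the highest and GapC9 library 1 the highest of its group. The accessory subunits overlapped, at −0.07 for POLD2, 0.18 for POLD3 and 0.17 for POLE2, with POLD2 positive after median scaling (0.072). POLD2 ranged from 38.8 to 47.1 FPKM in GapNC and from 38.2 to 44.1 FPKM in GapC9 libraries. POLD3 and POLE2 were less abundant, at 3.05 to 3.96 FPKM and 5.18 to 7.20 FPKM over the 6 libraries. POLD2 stood at 4.54 ± 0.751 times POLD1 in GapNC and at 6.58 ± 0.340 times in GapC9 libraries (SD, n = 3), with no overlap.

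PCNA, the sliding clamp, was the most abundant member, at 129.6, 141 and 114 FPKM in GapNC and at 159.6, 138 and 136 FPKM in GapC9 libraries. The groups overlapped (0.17 ± 0.11 SE, 95% interval −0.11 to 0.45, adjusted p = 0.388). The clamp loader RFC places PCNA on DNA, and RFC5 was the only one of its 5 subunits to pass the adjusted threshold. RFC5 (12:118013588-118033130, plus strand) was at 23.6, 25.6 and 24.1 FPKM in GapNC and at 17.3, 17.2 and 17.1 FPKM in GapC9 libraries. The groups lay far apart for their small spread, with means of 24.4 ± 1.01 and 17.2 ± 0.126 FPKM (SD, n = 3) and a log2 difference of −0.50 ± 0.084 SE (95% interval −0.71 to −0.30, adjusted p = 0.0308). RFC5 passed in 7 of 12 other settings and without GapNC library 1 (adjusted p = 0.0350), and not without GapNC 2, GapNC 3, GapC9 1, GapC9 2 or GapC9 3, where its adjusted p was 0.0758 to 0.125. It did not pass after median scaling, after quantile normalization, without the trend or with the replicate block. Exons of WSB2 and AC131159.2 lie on its opposite strand, and a pseudogene, RFC5P1, is named in the annotation.

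The large loader subunit RFC1 was at 0.14, RFC2 at −0.12, RFC3 at 0.31 and RFC4 at −0.05 in log2 fold change, all with overlap. RFC3 was at 12.5, 9.57 and 10.9 FPKM in GapNC and at 15.5, 9.55 and 16.7 FPKM in GapC9 libraries, where library 2 lay below every control. RFC1 ranged from 13.1 to 17.7 FPKM, RFC2 from 16.6 to 22.2 FPKM and RFC4 from 8.24 to 9.55 FPKM over the 6 libraries. RFC2 and RFC4 were positive after median scaling, at 0.029 and 0.092, and the RFC4 row also holds LINC02043. RFC5 stood at 1.62 ± 0.155 times RFC1 in GapNC and at 1.04 ± 0.118 times in GapC9 libraries (SD, n = 3), with no overlap.

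RPA is the trimer that coats single-stranded DNA, and its subunits differed in sign. RPA1 was at 24.9, 35.7 and 22.6 FPKM in GapNC and at 36.4, 35.9 and 33.7 FPKM in GapC9 libraries (0.38 ± 0.18 SE, adjusted p = 0.254). RPA2 was at 39.1, 34.3 and 21.3 FPKM in GapNC and at 38.9, 39.1 and 37.3 FPKM in GapC9 libraries (0.33 ± 0.23 SE), with GapNC library 3 far below the rest. RPA3, the smallest subunit, was at 4.43, 3.42 and 4.0 FPKM in GapNC and at 3.41, 3.15 and 2.74 FPKM in GapC9 libraries. Its groups lay apart by the narrow gap between 3.42 and 3.41 FPKM (−0.34 ± 0.15 SE, adjusted p = 0.213). RPA1 stood at 7.24 ± 2.78 times RPA3 in GapNC and at 11.5 ± 0.799 times in GapC9 libraries (SD, n = 3), without overlap. GapNC libraries were widely spread for RPA1 and RPA2, with SDs of 6.99 and 9.21 FPKM against 1.45 and 0.998 FPKM in GapC9. Okazaki fragments are trimmed by FEN1 and joined by the ligase LIG1. Both overlapped, at −0.18 for FEN1, whose row also holds FADS2 and which was positive at 0.062 after the GC correction, and at 0.052 for LIG1. FEN1 ranged from 10.8 to 15.3 FPKM and LIG1 from 6.001 to 8.66 FPKM over the 6 libraries, and both were highest in GapNC library 1.

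Genes of nucleotide synthesis overlapped in all 4 rows. RRM2, the small subunit of ribonucleotide reductase, was at 27.5, 27.0 and 24.9 FPKM in GapNC and at 27.1, 24.5 and 31.1 FPKM in GapC9 libraries (0.054 ± 0.12 SE, adjusted p = 0.810), in a row that also holds AC007240.1 and C2orf48. RRM1, the large subunit, was at 36.1, 46.7 and 43.3 FPKM in GapNC and at 45.7, 42.4 and 50.95 FPKM in GapC9 libraries (0.15 ± 0.13 SE). Both subunits were highest in GapC9 library 3 and overlapped. TYMS, which makes thymidylate, was at 97.4, 76.3 and 96.3 FPKM in GapNC and at 86.2, 77.7 and 79.7 FPKM in GapC9 libraries. The fitted change of TYMS was −0.14 ± 0.12 SE (adjusted p = 0.508), and 0.0035 after median scaling. Both TYMS rows are loci assembled by StringTie. The second was listed at 0 in 1 GapNC and 2 GapC9 libraries and otherwise lay between 4.10 and 5.87 FPKM. Its fitted change of −2.07 ± 2.16 SE (limma, adjusted p = 0.587) was the lowest of the 45 rows. RRM1 over RRM2 was 1.59 ± 0.243 in GapNC and 1.68 ± 0.0450 in GapC9 libraries (SD, n = 3).

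Promoter sequence is shown for 5 of these genes, because E2F factors act on many members. The set holds POLA1, GINS1 and RFC5, which were lower, MCM3, which was higher without overlap, and MCM6, which overlapped. Sequences are from RefSeq on GRCh38.p14, in the direction of transcription, 300 bases long with 250 before and 50 from the annotated start on, and capitals mark matches to an E2F core. The E2F core was searched on both strands as TTTCCCGC, as TTTGGCGC, as TTTCGCGC and as TTTGCCGC. The windows are chrX:24693668-24693967 (plus strand) for POLA1, chr20:25407423-25407722 (plus strand) for GINS1, chr12:118016453-118016752 (plus strand) for RFC5, chr6:52284693-52284992 (minus strand) for MCM3 and chr2:135876394-135876693 (minus strand) for MCM6.
POLA1: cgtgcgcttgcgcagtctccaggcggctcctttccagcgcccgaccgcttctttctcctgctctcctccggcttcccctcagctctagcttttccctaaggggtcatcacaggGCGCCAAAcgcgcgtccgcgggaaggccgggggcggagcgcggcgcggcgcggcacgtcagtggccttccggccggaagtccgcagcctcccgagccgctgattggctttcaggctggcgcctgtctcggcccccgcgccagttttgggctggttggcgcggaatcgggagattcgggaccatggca
GINS1: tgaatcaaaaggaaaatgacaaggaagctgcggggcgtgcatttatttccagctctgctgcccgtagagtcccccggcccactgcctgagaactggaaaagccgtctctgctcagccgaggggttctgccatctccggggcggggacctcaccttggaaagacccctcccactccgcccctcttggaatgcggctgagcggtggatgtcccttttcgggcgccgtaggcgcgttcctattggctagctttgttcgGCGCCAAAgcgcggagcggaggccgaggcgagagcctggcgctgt
RFC5: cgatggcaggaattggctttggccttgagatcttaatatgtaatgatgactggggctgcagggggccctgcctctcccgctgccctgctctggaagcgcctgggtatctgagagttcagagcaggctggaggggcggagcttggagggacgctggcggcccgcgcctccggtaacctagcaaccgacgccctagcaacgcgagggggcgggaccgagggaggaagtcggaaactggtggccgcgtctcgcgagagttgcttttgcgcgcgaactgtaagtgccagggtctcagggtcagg
MCM3: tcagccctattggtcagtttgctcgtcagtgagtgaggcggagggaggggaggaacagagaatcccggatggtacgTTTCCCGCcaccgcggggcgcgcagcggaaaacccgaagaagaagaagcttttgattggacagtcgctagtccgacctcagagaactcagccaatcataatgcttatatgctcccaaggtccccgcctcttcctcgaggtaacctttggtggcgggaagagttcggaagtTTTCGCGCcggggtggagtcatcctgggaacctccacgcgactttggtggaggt
MCM6: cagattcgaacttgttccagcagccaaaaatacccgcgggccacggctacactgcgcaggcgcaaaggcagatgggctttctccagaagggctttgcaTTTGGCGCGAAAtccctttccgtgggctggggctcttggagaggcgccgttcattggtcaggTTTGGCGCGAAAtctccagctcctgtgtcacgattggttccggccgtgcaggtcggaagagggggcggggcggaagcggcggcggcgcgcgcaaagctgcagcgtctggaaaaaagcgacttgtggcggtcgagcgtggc

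The POLA1 match begins at position −137 from the start and the GINS1 match at position 5, counted from 0 at the start itself. MCM3 has matches at −174 and −4, MCM6 has 4 overlapping ones in 2 copies of the same 12 letters, and the RFC5 window has 0. Of the 44 genes, 38 were matched, with 48 promoters, and MCM4, MCM5, GINS4, POLD3, RPA2 and RPA3 were not analysed here. The E2F core was present in 19 of the 48 promoters (39.6%), compared with 3.31% of the 35116 promoters of all genes. It was present in 6 of 13 promoters of genes that were lower without overlap, in 2 of 3 of those that were higher and in 11 of 32 of those that overlapped. The CCAAT box was present in 58.3% of member promoters and in 34.6% of all, and the letters of the cell cycle homology region (TTTGAA, either strand) in 2.08% and 15.2%. The promoters compared were not matched for base composition, and its part in these shares was not tested. A match describes these letters and is not evidence of binding.

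Other genes of the pathway were read from 6 further lists, in which 9 of 97 rows were lower (9.28%) and 2 were higher (2.06%) at an adjusted p under 0.05, beside 5.1% and 1.89% of all genes tested. In a fit to genes that averaged 1 FPKM or more, 8.7% of all genes were lower and 3.03% were higher. The shares of the lists were near that background. Among 18 origin firing and fork factors, 1 was lower at an adjusted p under 0.05 and 0 were higher in limma (2 at an unadjusted p). That gene, TICRR, which binds TOPBP1 and helps to load CDC45, was at 7.00, 6.56 and 7.79 FPKM in GapNC and at 4.43, 4.46 and 4.18 FPKM in GapC9 libraries (−0.69 ± 0.11 SE, adjusted p = 0.0290). Among 11 genes of the ubiquitin ligases that control licensing, CUL4A, the scaffold of a ligase that acts on CDT1, was lower (−0.71 ± 0.089 SE, adjusted p = 0.0186) and 0 were higher (2 at an unadjusted p in limma). Of 10 checkpoint genes, CDC25A, a phosphatase that activates CDK2, was lower (−0.77 ± 0.088 SE, adjusted p = 0.0166). Each of these 3 genes had all GapC9 values below all GapNC values. After median scaling the call of TICRR was lost, and those of CUL4A and CDC25A were kept.

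Of 19 genes of clamp loading, lagging strand synthesis and chromatin assembly, 3 were lower and 1 was higher at the adjusted threshold, and the 3 lower calls were lost after median scaling. CHTF18, a subunit of an alternative clamp loader, was lower at a log2 fold change of −0.97 ± 0.20 SE (adjusted p = 0.0461). RNASEH2B, a subunit of the enzyme that removes ribonucleotides from DNA, was lower at −0.93 ± 0.17 SE (adjusted p = 0.0377). The histone chaperone ASF1B was lower at −0.66 ± 0.13 SE (adjusted p = 0.0454). TOP1, which relaxes supercoils ahead of the fork, was higher, at 107, 83.8 and 80.8 FPKM in GapNC and at 132, 143 and 155 FPKM in GapC9 libraries (0.67 ± 0.13 SE, adjusted p = 0.0438).

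Of 20 rows of deoxynucleotide supply, which hold 21 genes because NME1 and NME2 share a row, 2 were lower and 1 was higher at the adjusted threshold. CTPS1, which makes CTP, was at −0.70 ± 0.094 SE (adjusted p = 0.0213) and MTHFD1, an enzyme of folate metabolism, at −0.84 ± 0.11 SE (0.0192). GART, an enzyme of purine synthesis, was higher, at 29.8, 31.9 and 28.0 FPKM in GapNC and at 45.2, 44.4 and 47.3 FPKM in GapC9 libraries (0.61 ± 0.089 SE, 0.0255). Of 19 E2F and DREAM regulators, the factors that control many members, 17 had a negative fitted change with a list median of −0.29, next to −0.076 for all genes. Of all genes tested, 9035 of 16028 had a negative fitted change. These values are unscaled, and median scaling moved the fitted changes up by 0.14. Any link between these regulators and the members was not tested. Only E2F7, a repressor of E2F targets, passed among these regulators (−0.60 ± 0.11 SE, adjusted p = 0.0360), and its call was lost after median scaling. The share of rows that were lower without overlap was 11.1% for origin firing, 18.2% for the ligases and 20% for the checkpoint. It was 31.6% for the E2F and DREAM regulators, 40% for deoxynucleotide supply and 52.6% for clamp loading and chromatin assembly. Among all genes tested the share was 21.6%, and 24.7% among those that averaged 1 FPKM or more. After median scaling it was 14.6% of all genes tested, and the scaled shares of the lists are not given here. Of the 11 genes named from the 6 lists, 10 passed without GapNC library 1 and 0 passed without any 1 of the other libraries. CHTF18, the exception, and RNASEH2B were the 2 that also met the rule of ratio and unadjusted p.

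**Figure D3:**
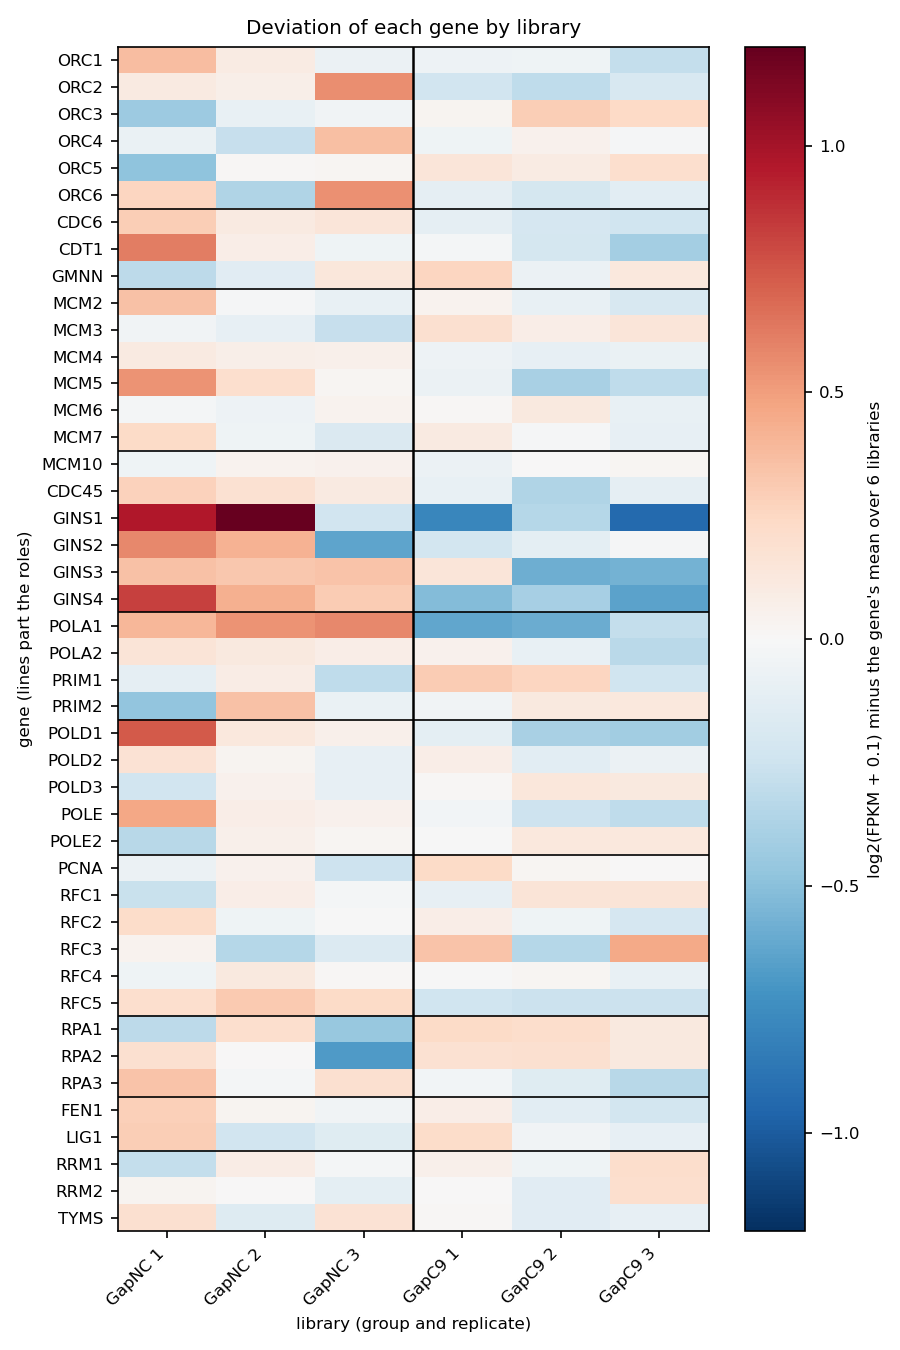
Deviation of each gene from its mean over the 6 libraries on the log2(FPKM + 0.1) scale, with lines between the roles and between the groups. GapNC library 1 holds the highest value of 21 of the 44 genes, and GINS1 is the row with the widest range of colour.

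Libraries of one group differed among themselves. The median deviation of the 44 genes from their own means was 0.18, 0.062 and 0.0054 (log2) in GapNC libraries 1 to 3 and 0.0043, −0.089 and −0.098 in GapC9 libraries 1 to 3. GapNC library 3 and GapC9 library 1 were thus level for the typical member. GapNC library 1 held the highest value for 21 of 44 genes, and GapC9 library 3 the lowest for 15. The deviation of genes in GapNC library 1 rose with their GC content (Spearman 0.461 over the 44 members and 0.618 over 10117 genes that averaged 1 FPKM or more), and in GapC9 library 3 it went the other way (−0.413 and −0.384). The log2 fold change of the members had a Spearman correlation of −0.236 with GC content, against −0.336 over all genes. These correlations are across genes, which share libraries and are not independent replicates. The part of GC content in the differences was not tested beyond the GC correction, after which POLA1, GINS4 and RFC5 still passed, together with ORC2 in the lower and MCM3 and ORC3 in the higher direction. Calls over all genes were also more frequent after this correction, at 7.66% lower and 6.80% higher, and 0 members passed when a replicate block was added to it.

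The coefficient of variation was larger in GapNC than in GapC9 libraries for 36 of 44 genes, with medians of 13.5% and 8.97%. At an unadjusted p under 0.05 in limma, 6 to 13 rows were found with a library left out, beside 19.1% to 25.1% of all genes. By ratio and unadjusted p, POLA1 alone remained without GapNC library 1.

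**Figure D4:**
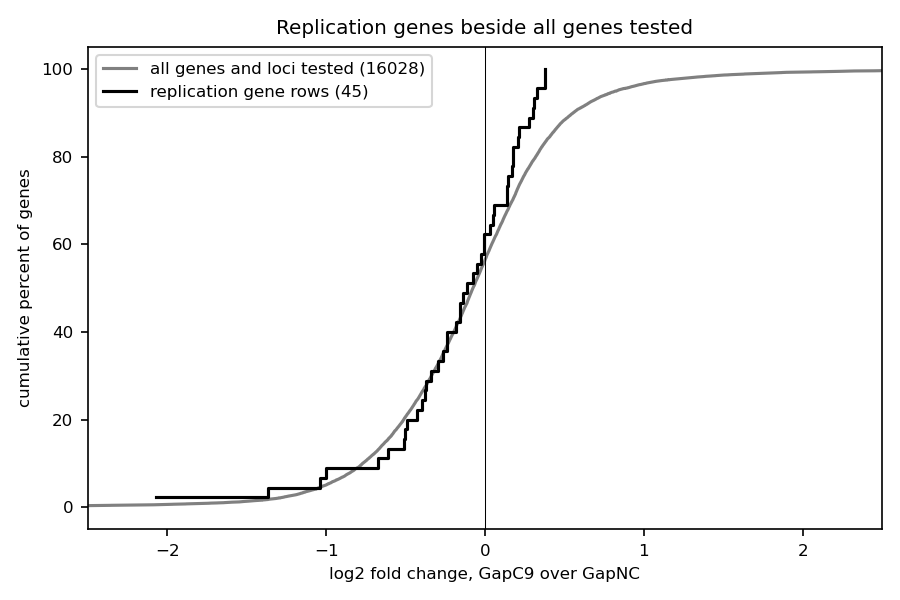
Cumulative percent of genes against log2 fold change, GapC9 over GapNC, for the 45 rows of replication genes and all 16028 genes and loci tested. The curves run close together in the middle, at medians of −0.12 and −0.076. The replication genes end on the right with ORC3 at 0.38, at percentile 83.2 of all genes tested. The full set, which has more rows and a lower median level, extends further, and the part of these was not tested.

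The levels of the 44 genes spanned PCNA at 136 FPKM to GINS4 at 2.11 FPKM as means over the 6 libraries, with a median of 12.6 FPKM against 2.38 FPKM for all genes tested, and 26 were at or above 10 FPKM. In descending order PCNA was followed by MCM7, TYMS, MCM4, MCM3 and MCM2. Of the 43 pairs of neighbours in this order, 34 overlapped in the GapNC libraries and 9 did not, among them PCNA with MCM7, TYMS with MCM4 and MCM4 with MCM3. The subunits MCM2 to MCM7 differed in level by 3.07 times. The log2 fold change had a Spearman correlation of 0.329 with the level and of 0.145 with the length of the gene over the 44 members, given as descriptions.

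**Figure D5:**
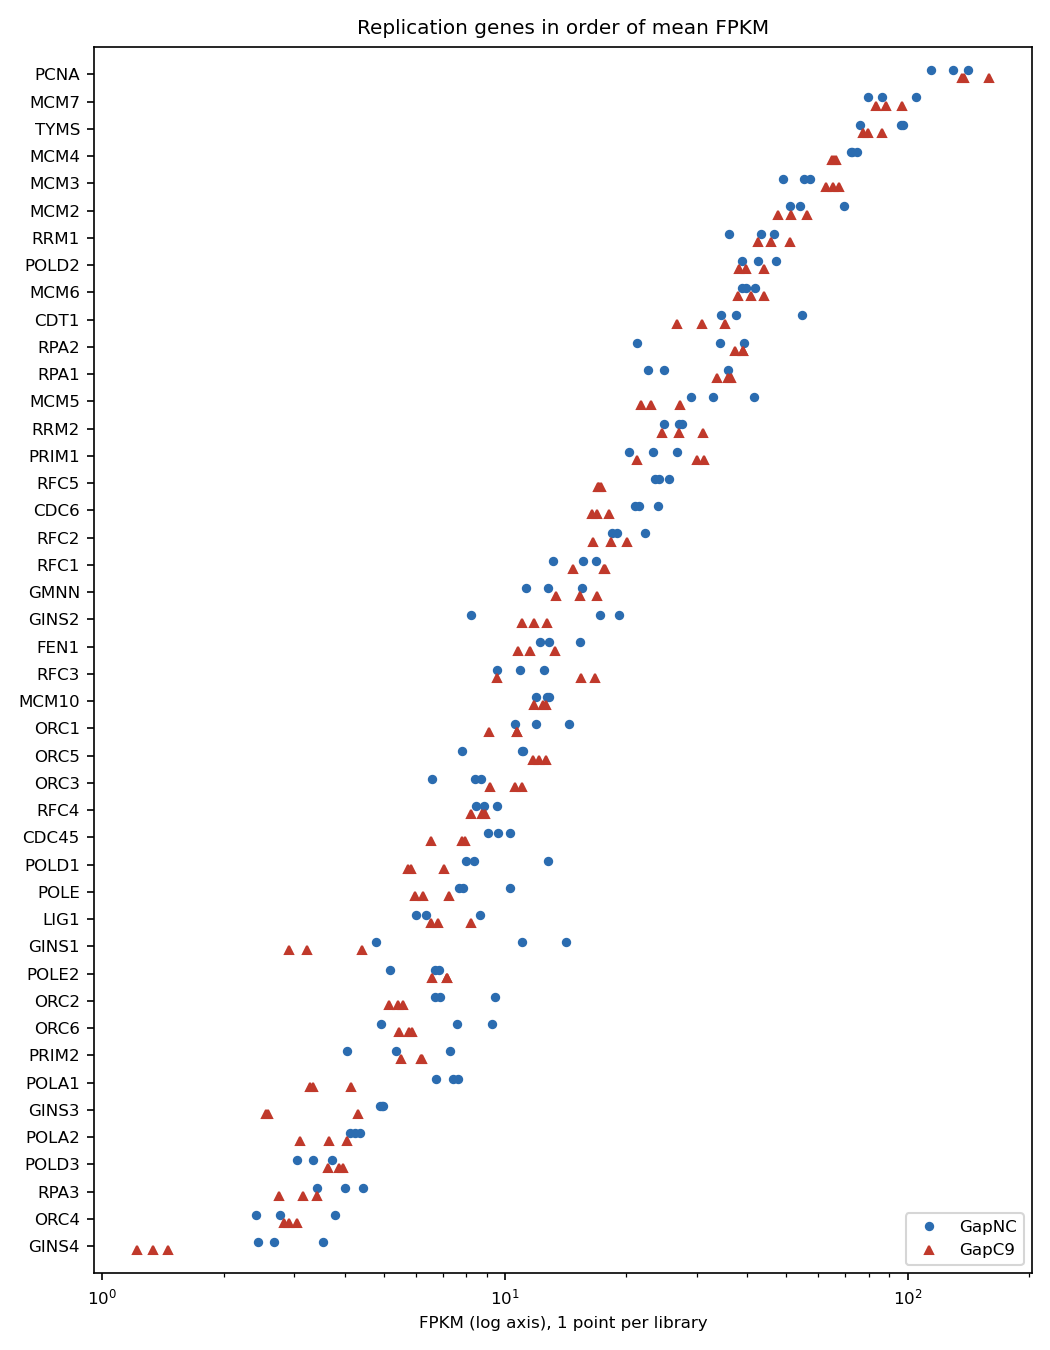
FPKM of the 44 replication genes in every library on a log axis, ordered by mean, with circles for GapNC and triangles for GapC9. PCNA and MCM7 stand at the top, GINS4 at the bottom, and the groups separate clearly for POLA1, GINS4 and RFC5.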

How the data were processed

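Poly(A) RNA of HCT-116 cells was sequenced in 3 GapNC and 3 GapC9 libraries, grouped by the labels. The authors deposited FPKM values, computed with StringTie after alignment, together in a single file of genes and loci. Per the submitters' processing notes the tools were Bowtie 0.12.2, HISAT2 2.0 and StringTie 1.3.0. The notes name a mouse build (mm8), although the gene identifiers are human, and the build of the alignment was not settled here. The assembly can join neighbouring genes in 1 row, as for 5 member rows. Exons of 6 members overlap another gene on the same strand and of 16 on the opposite strand, use of strand is not given in the sources used here, and 8 have named pseudogenes. FPKM is relative to the library total, so a rise of abundant RNAs lowers all other values.

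In R 4.3.3, limma 3.58.1 (eBayes with trend) was fitted to log2(FPKM + 0.1), using the 16028 rows that averaged 0.1 FPKM or more, as all 45 member rows did, with Benjamini-Hochberg adjustment. Fold changes on this scale understate those of low genes. The ratio and unadjusted p follow the thresholds of the study's methods. Other software was data.table (version 1.17.8), Python 3.11.15 and matplotlib 3.10.9. GC content, coordinates and overlaps came from GENCODE on GRCh38, matched for 99.3% of the loci tested. Alternatives were other pseudocounts (1 and 0.01), other filters, median scaling, quantile normalization, no trend, robust variances, a replicate block, a GC correction (lowess, span 0.3) and each library left out. All members were named, and of the other lists only genes that passed. The members and lists were chosen with earlier results of these data known.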

Additional observations from a re-analysis of the deposited data

How the results depend on the processing

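Of 809 values of single members under 18 alternatives, 744 kept their direction and side of the adjusted threshold. Of the rest, 25 lost the threshold, 4 gained it and 36 changed sign. All 25 losses fell on POLA1, GINS4 and RFC5, the only members that passed in the main fit and so could lose it. POLA1 passed in 10, GINS4 in 9 and RFC5 in 7 of 12 other settings, and each in 1 of 6 fits with a library left out. Across all settings, 32 members kept their sign and 13 did not. Members lower at the adjusted threshold numbered 0 with a replicate block, 0 with the block and GC correction, and 0 to 3 when 1 library was left out. Members higher numbered 1 after median scaling (MCM3) and 2 after the GC correction (MCM3 and ORC3). By ratio and p, 1 member was lower after median scaling, 1 after quantile normalization (GINS1 in both), and 1 to 3 with a library left out. The members' median was 0.029 after median scaling, 0.029 after the GC correction and 0.029 with block and GC correction, and −0.17 to −0.057 with a library left out.

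Over all genes, 303 higher and 817 lower calls became 146 and 346 without a filter, 483 and 427 after median scaling, 1090 and 1228 after the GC correction, 0 and 0 with the block, and 0 and 1 with block and GC correction. Quantile normalization gave 516 lower. With a library left out they were 16 to 241 higher and 17 to 573 lower. By ratio and p, 336 higher and 693 lower became 116 and 380 at 1 FPKM or more and 582 and 383 after median scaling. Without a filter 555 were higher, and 412 (GC correction) and 394 (block and GC correction) were lower.

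In the 6 related lists, 9 lower and 2 higher calls became 5 and 1 without a filter, 14 and 8 after the GC correction, 0 and 0 with the block, and 0 and 0 with block and GC correction. Without the trend 1 was higher, after median scaling 4 were lower, and with a library left out 0 to 10 were lower and 0 to 3 higher.

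Signs changed for members near 0. Median scaling gave MCM7 0.14, MCM10 0.12, ORC4 0.14, RFC2 0.029, RFC4 0.092, POLD2 0.072 and TYMS 0.0035. Quantile normalization gave MCM7 0.0061, MCM10 0.027, ORC4 0.14 and RFC4 0.022. The GC correction, with the same value when the block was added, gave MCM2 0.073, MCM7 0.22, RFC2 0.047, RFC4 0.26, POLD2 0.18 and FEN1 0.062. With a library left out, the ranges that crossed 0 were −0.022 to 0.084 for MCM6, −0.090 to 0.11 for MCM7, −0.060 to 0.0012 for MCM10, −0.14 to 0.17 for ORC4, −0.067 to 0.35 for PRIM2, −0.049 to 0.21 for LIG1 and −0.036 to 0.13 for RRM2. The cause was not tested.

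Whether replicate numbers pair the libraries was not settled. Deviations of same-numbered libraries correlated at 0.0970, 0.0399 and 0.0243. Differently numbered ones lay between −0.0930 (GapNC 1 with GapC9 2) and 0.0578 (GapNC 3 with GapC9 2). Deviations cancel out within a group, so these correlations offset each other and cannot decide whether the numbers mark pairs. The block left 4570 of all genes and 14 member rows at an unadjusted p under 0.05 in limma, where the main fit gave 4157 and 13. Without counts, and with 3 libraries a group, the precision of genes with low FPKM is not known.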
